A study of Mus musculus with 72 samples.

Results

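In mice with chemical colitis, colons treated with TNFR-Ig and anti-TWEAK together were compared with colons given a control antibody. The comparison used 14 of the 72 arrays of the series, 7 per group, all from experiment 10 and chosen by their titles. Every mouse was a wild type Balb/c animal, and the label of no group gives an age. TNBS, a hapten that causes colitis when given into the colon, was dosed at 70 µg/g, and the colon was collected on day 4. Combination mice received TNFR-Ig (also labelled TNFR-Fc), a soluble TNF receptor fused to an antibody tail, at 0.3 mg/kg with the anti-TWEAK antibody mP2D10 at 10 mg/kg, by intraperitoneal injection before TNBS. Control IgG mice received an IgG2a antibody against human CD20 at 10 mg/kg and the same TNBS. Further groups of experiment 10 served for side-by-side values: 6 mice given anti-TWEAK at 10 mg/kg alone, 6 given TNFR-Ig at 0.3 mg/kg alone and no antibody, 4 untreated mice with TNBS, and 8 naive mice without TNBS. Experiment 7 held 8 combination and 8 control IgG mice at the same doses. Each array measured the RNA of 1 mouse, cut from the frozen rolled colon, so it holds all cell types of the colon wall. In such bulk tissue, fewer cells of a type and less RNA per cell cannot be told apart.

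TNF and TWEAK are related cytokines. TNF acts through the receptors Tnfrsf1a and Tnfrsf1b and is a main driver of canonical NF-kB signalling, which turns on chemokines, adhesion molecules and proteases in inflamed gut. TWEAK, made from the gene Tnfsf12, acts through Fn14, the product of Tnfrsf12a, which is induced on injured epithelium and stroma and feeds the canonical and the non-canonical NF-kB pathway. The comparison addresses what happens in colitic colon when both ligands are blocked together.

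NF-kB binds a kappa B decamer, and promoters of 3 members of the canonical NF-kB target list that passed the test are shown, since the decamer was found in them and they moved in different directions. Cxcl1 encodes a neutrophil-attracting chemokine and was lower with the combination. Bcl3 encodes an atypical I kappa B protein and was lower too, while Tnip1, an inhibitor of NF-kB signalling, was higher. The sequences are from RefSeq on GRCm38.p6, run 5′ to 3′ from 250 bases before the gene's start to 50 after it, and have each decamer match on either strand in capitals.
Cxcl1: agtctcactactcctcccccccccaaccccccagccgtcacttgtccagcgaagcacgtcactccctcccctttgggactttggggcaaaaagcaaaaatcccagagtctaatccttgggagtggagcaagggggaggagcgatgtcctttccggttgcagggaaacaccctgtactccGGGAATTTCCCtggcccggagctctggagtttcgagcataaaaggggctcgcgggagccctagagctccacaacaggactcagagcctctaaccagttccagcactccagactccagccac
Bcl3: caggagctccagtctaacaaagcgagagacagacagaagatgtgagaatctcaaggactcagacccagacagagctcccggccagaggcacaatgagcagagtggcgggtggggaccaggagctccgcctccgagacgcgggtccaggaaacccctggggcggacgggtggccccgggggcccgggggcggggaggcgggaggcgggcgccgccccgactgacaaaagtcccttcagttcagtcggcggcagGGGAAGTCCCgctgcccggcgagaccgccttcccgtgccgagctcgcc
Tnip1: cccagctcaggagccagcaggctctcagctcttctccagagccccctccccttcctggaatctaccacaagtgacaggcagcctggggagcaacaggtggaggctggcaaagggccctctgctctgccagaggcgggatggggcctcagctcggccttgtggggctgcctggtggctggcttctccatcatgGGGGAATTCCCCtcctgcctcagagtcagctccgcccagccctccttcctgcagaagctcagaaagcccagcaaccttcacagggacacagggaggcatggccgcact
The Cxcl1 promoter is chr5:90890995-90891294 on the plus strand and holds 2 overlapping matches, the first of which begins 71 bases before the start. The Bcl3 promoter, chr7:19822706-19823005 on the minus strand, has 1 match that begins 2 bases after the start. In the Tnip1 promoter, chr11:54962891-54963190 on the minus strand, there are 3 matches and the first begins 58 bases before the start. Selp and Traf1, other called members of the list, have no match in this window. Among tested members of the list with a promoter in the table, 15 of 26 (57.7%) held the decamer, against 1229 of 10082 (12.2%) of all tested genes and 2581 of 27025 (9.55%) of all promoters. The list was drawn up as NF-kB targets, so its higher share is not a result about the combination. A match describes letters only.

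The values are log2 intensities with a floor of 2.08, and 12534 genes were tested, each by its brightest probe set. Median intensities of the 14 arrays lay between 4.61 and 4.71, and 37.5% of all their values were within 0.1 of the floor. Colonocyte markers had mean intensities of 12.05 to 12.21 on combination arrays and of 11.85 to 12.14 on control IgG arrays, and goblet cell markers were brighter still, which fits the label of colon. The arrays are numbered in runs by group, so position in the numbering and group cannot be told apart. RNA quality moved with the groups. The 3 prime minus 5 prime difference of Actb, which is larger in more degraded RNA, was 1.24 ± 0.13 on combination arrays and 1.11 ± 0.07 on control IgG arrays (SD, n = 7 each; exact permutation test, two-sided p = 0.0181, adjusted over 3 measures 0.0271). For Gapdh it was 0.844 ± 0.074 on combination arrays and 0.759 ± 0.039 on control IgG arrays (SD, n = 7 each; exact permutation p = 0.00932, adjusted 0.0271). Combination replicates 1 and 2 carried mean neutrophil marker levels of 8.44 and 8.14, within the control IgG range of 5.89 to 8.60, whereas the other 5 combination arrays lay between 3.77 and 5.42.

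The combination changed 1601 of 12534 genes (12.8%) against control IgG at an adjusted p under 0.05 in limma, 951 higher (7.59%) and 650 lower (5.19%). Each list count below is to be read beside these shares of all genes. Most changes were small. Below, a value in parentheses is a log2 difference ± its SE with limma's adjusted p. Among the called genes the median size was 0.29 log2 units, and a difference of 1 log2 unit or more was found in 65 genes, of which 41 were higher. The 7 combination values did not overlap the 7 control IgG values for 301 genes (2.4%), 156 higher (1.24%) and 145 lower (1.16%). The 5 largest falls were in Cxcl1, Sprr2h, Lrg1, Selp and Mmp13, and among the largest rises were the neuropeptide genes Nmu and Grp, the soluble IL-22 inhibitor Il22ra2 and the clock gene Dbp. The number of calls depended on single arrays: leaving 1 out gave 787 calls without control IgG replicate 4, 813 without combination replicate 8, 877 without combination replicate 7, 938 without control IgG replicate 5 and 2109 calls without combination replicate 2; the counts were 1029, 1039 and 1062 without control IgG replicate 7, combination replicate 5 and control IgG replicate 2. Of 102 called genes picked by size or by list, 40 held whichever array was left out and the other 62 missed the threshold in at least 1 such comparison. With the Actb difference as a covariate, added after seeing the data, 150 genes were called, 142 of them shared with the 1601. With a block for replicate number, whose pairing of mice is undecided, 4 genes were called.

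**Figure D1:**
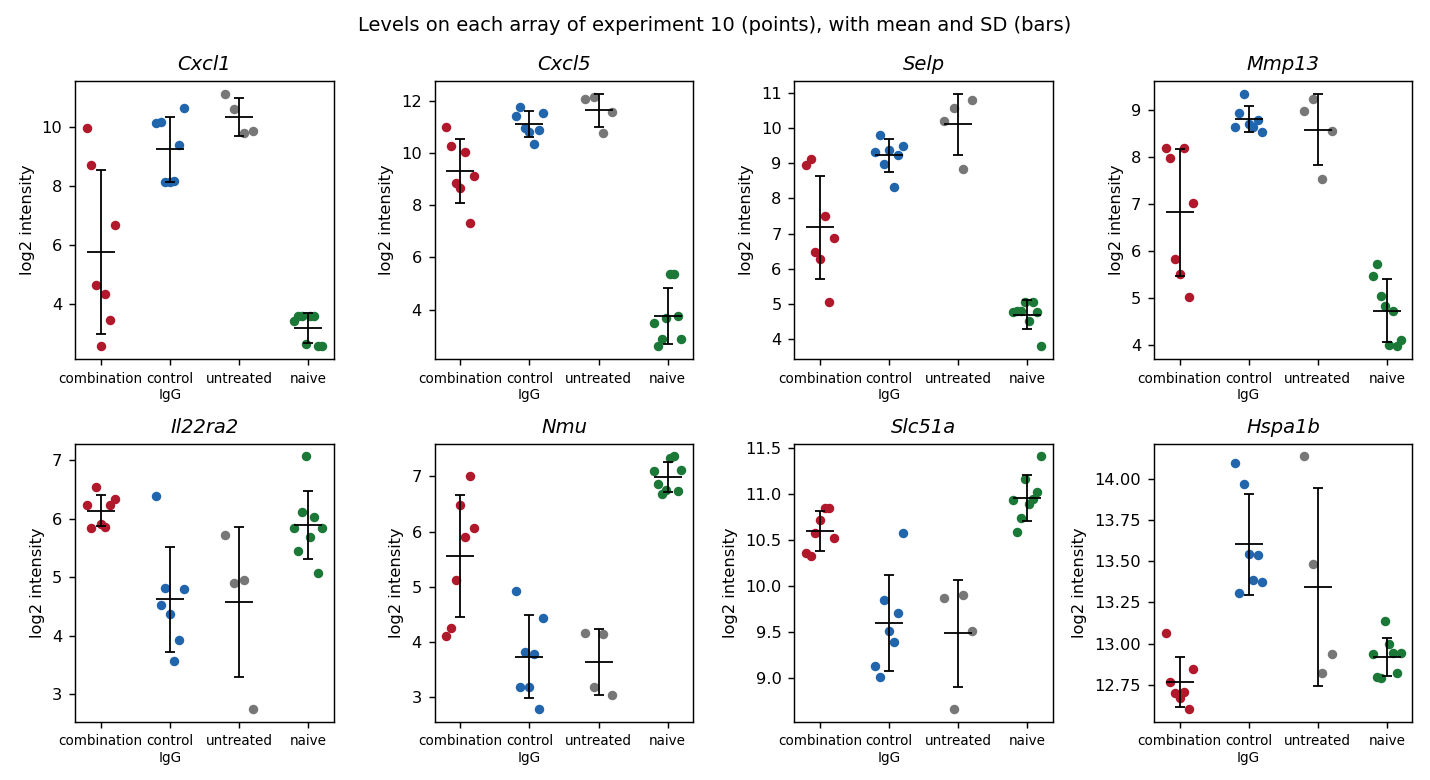
Log2 intensity of 8 genes on each array of experiment 10, as points with the group mean and SD, for combination, control IgG, untreated and naive mice. Mmp13 and Hspa1b are lower on all 7 combination arrays than on any control IgG array, while for Cxcl1, Cxcl5, Selp, Il22ra2, Nmu and Slc51a the 2 groups overlap.

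Of the receptors of the blocked ligands, only Tnfrsf1b passed the test among those measured. Tnfrsf1b, the second TNF receptor, found mainly on leukocytes and endothelium, had lowest, median and highest log2 intensities of 9.77, 10.22 and 10.68 on combination arrays and of 10.61, 10.82 and 11.08 on control IgG arrays. Combination replicate 2, the highest of its group, lay just above the lowest 2 control IgG arrays, and the other combination arrays lay below all of them. Tnfrsf1b fell by 0.62 ± 0.13 log2 units (SE; limma adjusted p = 0.0148), and the call held when any 1 array was left out. Untreated mice averaged 11.07 and naive mice 9.66. Tnfrsf12a, which encodes Fn14, averaged 8.36 ± 0.70 in combination mice and 8.96 ± 0.25 in control IgG mice (SD, n = 7 each), a difference of -0.59 ± 0.27 (SE) that did not pass (adjusted p = 0.144). Tnfrsf1a, the widely expressed first TNF receptor, differed by -0.082 (adjusted p = 0.642). Tnf itself was too dim to be tested, and no probe set of Tnfsf12 alone was used here.

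Inside the pathway, of 16 tested members 2 were called higher and 1 lower, with a median of -0.008 against 0.0044 over all genes. The higher ones were Ikbkg, the NEMO subunit of the I kappa B kinase, by 0.24 (adjusted p = 0.0293), and Tab2, an adaptor of the kinase TAK1, by 0.082 (adjusted p = 0.0472). For Ikbkg the probe sets disagreed, and the other 3 gave -0.29, -0.18 and -0.37. The NF-kB subunit genes did not pass: Rela differed by 0.019 (adjusted p = 0.833), Relb by 0.22 (adjusted p = 0.0565) and Nfkb2, a subunit of the non-canonical pathway, by 0.30 (adjusted p = 0.07). The inhibitors Nfkbia, at -0.091 (adjusted p = 0.487), and Tnfaip3, at -0.0076 (adjusted p = 0.971), did not pass either. None of the 10 tested non-canonical NF-kB genes was called by limma, and their median was 0.034.

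Canonical NF-kB targets split. Of 35 tested targets 4 fell and 3 rose, 29 had a difference below 0, and the median was -0.55. Cxcl1, Cxcl5, Selp and Bcl3 were the ones that fell. Those that rose were Cd83, a surface marker of activated dendritic and B cells, Traf1, an adaptor of TNF receptors, and Tnip1. Cd83 had 10.33, 10.88 and 11.09 (lowest, median, highest) on combination arrays and 9.72, 10.09 and 10.41 on control IgG arrays, a rise of 0.75 ± 0.14 (SE; adjusted p = 0.00962). Naive mice averaged 11.16. Bcl3 had 8.86, 9.51 and 10.13 on combination arrays and 9.76, 10.18 and 10.31 on control IgG arrays and fell by 0.63 ± 0.17 (adjusted p = 0.0303). Combination replicate 1 lay inside the control IgG range and replicate 2 at its lower edge. Tnip1 had 10.80, 10.94 and 11.07 on combination arrays and 10.30, 10.73 and 10.87 on control IgG arrays, a rise of 0.26 ± 0.077 (adjusted p = 0.044). Its level in untreated mice, 10.93, was nearer to that of the combination group. Traf1 averaged 6.06 ± 0.33 in combination mice and 5.47 ± 0.37 in control IgG mice (SD, n = 7 each; adjusted p = 0.0436). The number of falling targets was 0 to 8 when 1 array was left out, with 0 called by limma without combination replicate 3 or 5 or control IgG replicate 2 or 4 and 8 without combination replicate 1. With the Actb covariate Cxcl1 and Cd83 alone stayed called on this list.

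The neutrophil chemokine list had the lowest median of the lists plotted, though 2 of its 8 genes passed. Cxcl1 had 2.55, 4.63 and 9.99 on combination arrays and 8.13, 9.40 and 10.68 on control IgG arrays (lowest, median, highest log2 intensity). Combination values ran from below the naive mean of 3.19 to just under the untreated mean of 10.37, with replicates 1 and 2 at the top. On average Cxcl1 fell by 3.50 ± 1.06 (SE; adjusted p = 0.0469), which is 11.3-fold lower. The call was lost in 11 of the 14 comparisons that left 1 array out (adjusted p up to 0.0917), while with the Actb covariate the difference was -5.09 (adjusted p = 0.047). Cxcl5, like Cxcl1 a ligand of the neutrophil receptor Cxcr2, had 7.34, 9.11 and 11.01 on combination arrays and 10.36, 10.98 and 11.76 on control IgG arrays and fell by 1.79 ± 0.47 (adjusted p = 0.0281). Combination replicate 1 lay inside the control IgG range, and the other 6 combination arrays lay below it. Without combination replicate 3, 5 or 8, or control IgG replicate 2 or 4, the Cxcl5 call missed the threshold (adjusted p up to 0.0567).

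The 8 tested neutrophil chemokine genes, which include their receptor and growth factors, all lay below 0 with a median of -2.11, and the other 6 did not pass. Neutrophil markers did not pass one by one: 0 of 16 were called by limma, 8 had an unadjusted p under 0.05, 15 lay below 0 and their median was -1.70. With all arrays of experiment 10 sharing the spread, 6 of the 16 were called lower. The mean of the 16 markers ran from 3.77 to 8.44 with the combination (median 5.38) and from 5.89 to 8.60 with control IgG (median 7.27), so the groups overlapped. Naive arrays lay between 2.52 and 3.49. Closest to the threshold was Mmp9, the gelatinase stored in neutrophil granules, at -1.40 ± 0.49 (SE; adjusted p = 0.0714). Selp encodes P-selectin, on which leukocytes roll along activated endothelium, and had 5.06, 6.87 and 9.11 on combination arrays and 8.31, 9.33 and 9.81 on control IgG arrays. It fell by 2.04 ± 0.55 (adjusted p = 0.0303), with combination replicates 1 and 2 inside the control IgG range, and missed the threshold in 7 of 14 leave-one-out comparisons (adjusted p up to 0.0615). Another of the largest falls was in Lrg1, a secreted glycoprotein of the acute phase and of neutrophil granules, with 6.75 ± 1.60 in combination mice and 9.06 ± 0.80 in control IgG mice (SD, n = 7 each; difference -2.31, adjusted p = 0.0339; lost in 8 of 14). The 12 CC chemokines had 0 calls in limma and a median of -0.34, and Ccl7, a monocyte chemoattractant, came closest at -2.37 ± 0.80 (adjusted p = 0.0643). Ccr1, a receptor of CC chemokines on myeloid cells, fell by 1.47 ± 0.43 (adjusted p = 0.0425).

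Of 24 tested monocyte and macrophage markers 2 fell and 1 rose, with a median of -0.12. Over all genes 12.8% were called, so this count is close to the share of all genes. Clec4n, the fungal pattern receptor Dectin-2, had 6.94, 7.74 and 8.09 on combination arrays and 8.34, 8.48 and 8.68 on control IgG arrays (lowest, median, highest). No combination array reached the lowest control IgG array. Clec4n fell by 0.79 ± 0.15 (adjusted p = 0.00996), a call kept without any 1 array and with the Actb covariate (-0.90, adjusted p = 0.0413). Naive mice averaged 5.92 and untreated mice 8.72. Cd14, the co-receptor for lipopolysaccharide, fell by 0.56 ± 0.16 (adjusted p = 0.0381), and Cx3cr1, the fractalkine receptor of resident macrophages, rose by 0.38 ± 0.12 (adjusted p = 0.0464). The Cd14 call was lost in 10 and the Cx3cr1 call in 12 of 14 leave-one-out comparisons. All 11 C-type lectin and Trem receptor genes lay below 0 (median -0.69), and Clec4n alone among them was called. No Fc gamma receptor of 6 was called by limma (median -0.53), and Fcgr4 was nearest at -0.86 ± 0.29 (adjusted p = 0.0677). In the IL-6 family 0 of 13 were called by limma, 12 lay below 0 and the median was -0.59. Its nearest member was Socs3, the feedback inhibitor of STAT3 signalling, at -1.11 ± 0.41 (adjusted p = 0.089).

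Few lymphoid and interferon genes passed. Limma called none of the 9 T cell markers, 23 interferon-stimulated genes or 6 MHC class II presentation genes. The interferon-stimulated genes had a median of -0.092. The T cell gene nearest to the threshold was Cd3e, at 0.31 ± 0.12 (adjusted p = 0.0889). Of 9 B cell and plasma cell markers Jchain, which joins IgA dimers, was called, at 0.24 ± 0.07 (adjusted p = 0.0391), and the list had a median of 0.63. H2-Ob, a gene of the MHC class II loading pathway in B cells, was among the largest rises (1.46 ± 0.41, adjusted p = 0.0349). Of 4 tested mast cell and eosinophil markers 2 were called higher and 0 lower, with a median of 0.185. The 2 that were not called lay below 0, down to -2.92. Siglecf, a lectin of eosinophils, rose by 0.77 ± 0.17 (adjusted p = 0.0164). Kit, the receptor of stem cell factor on mast cells and on pacemaker cells of the gut wall, rose by 0.50 ± 0.088 (adjusted p = 0.00734) with no overlap between the groups.

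**Figure D2:**
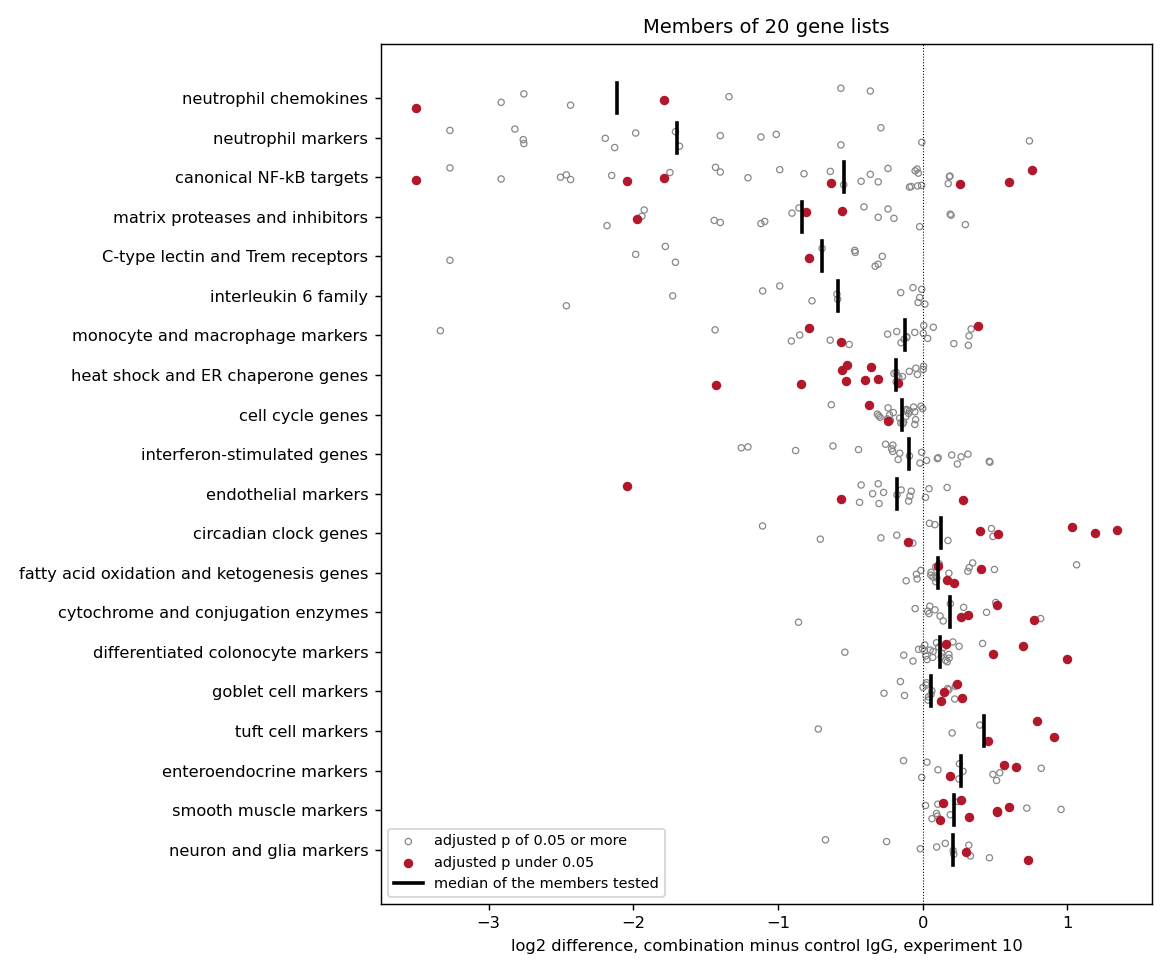
Log2 difference, combination minus control IgG, of every tested member of 20 gene lists, with members at an adjusted p under 0.05 filled in red, the others open grey and each list's median as a black bar. Neutrophil chemokines and neutrophil markers have the lowest medians, at -2.11 and -1.70, while all 16 smooth muscle markers lie above 0.

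The matrix proteases that passed the test were lower. Of 20 tested matrix proteases and inhibitors 3 fell and 0 rose, 17 lay below 0, 14 had an unadjusted p under 0.05, and the median was -0.83. Mmp13, a collagenase of stromal cells, had 5.03, 7.02 and 8.18 on combination arrays and 8.53, 8.70 and 9.34 on control IgG arrays. All 7 combination arrays lay below the lowest control IgG array, though 3 of them stayed near 8. Mmp13 fell by 1.98 ± 0.49 (adjusted p = 0.0234), or 3.93-fold lower, and missed the threshold without control IgG replicate 4 alone (adjusted p = 0.0514). The aggrecanase genes Adamts4 and Adamts9, whose enzymes cleave proteoglycans, fell by 0.81 ± 0.21 (adjusted p = 0.0253) and by 0.56 ± 0.14 (adjusted p = 0.0242). With the Actb covariate the differences were -2.23 for Mmp13, -0.92 for Adamts4 and -0.64 for Adamts9, each at an adjusted p of 0.0663. The number of members that fell was 2 to 9 with 1 array left out, at 8 without combination replicate 1, 9 without combination replicate 2 and 2 without control IgG replicate 4. It was 11 with all arrays of experiment 10 sharing the spread and 11 with pooled controls. Of 23 collagen and matrix genes 17 lay below 0 (median -0.105), and Col6a1 alone was called, at 0.21 (adjusted p = 0.0469). That call was lost in 10 of 14 leave-one-out comparisons. Pla2g2a, a secreted phospholipase with antibacterial activity, fell by 1.56 ± 0.44 (adjusted p = 0.0351). Of 17 endothelial markers, Selp and Tie1, an endothelial receptor kinase, fell (Tie1 -0.56 ± 0.14, adjusted p = 0.0224), and Tek, its partner and the receptor of angiopoietins, rose (0.28 ± 0.068, adjusted p = 0.0217). Further large falls were in Sprr2h, a small proline-rich protein of barrier epithelia (-2.32 ± 0.61, adjusted p = 0.0289), A2m, a broad protease inhibitor (-1.89 ± 0.58, adjusted p = 0.0487), Bcat1, an enzyme of branched-chain amino acid breakdown (-1.69 ± 0.45, adjusted p = 0.0303), the lactate exporter Slc16a3 (-1.52 ± 0.46, adjusted p = 0.0475) and Khdc1a (-1.47 ± 0.36, adjusted p = 0.0233). In that order these calls were lost in 4, 10, 5, 11 and 1 of 14 leave-one-out comparisons. The highest A2m values on combination arrays were 3.50 and 2.65, near the floor of 2.08.

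Chaperone genes were lower as a group mean on every combination array. The mean of 20 heat shock and ER chaperone genes ran from 11.83 to 12.17 with the combination (median 11.98) and from 12.19 to 12.46 with control IgG (median 12.25), without overlap. Of these 20 genes 9 fell and 0 rose, 18 lay below 0, and 8 to 11 fell when 1 array was left out. Hspa1b, an inducible Hsp70, had 12.60, 12.71 and 13.06 on combination arrays and 13.31, 13.54 and 14.10 on control IgG arrays. Each combination array was dimmer than the dimmest control IgG array. Hspa1b fell by 0.84 ± 0.12 (adjusted p = 0.0046). Its twin gene Hspa1a, nearly identical in sequence so that probe sets may share signal, fell by 1.43 ± 0.34 (adjusted p = 0.0201). Hsph1, an exchange factor for Hsp70, fell by 0.53 ± 0.087 (adjusted p = 0.00642). Sdf2l1, a part of the ER chaperone complex, fell by 0.56 ± 0.11 (adjusted p = 0.00996). Smaller falls were in Creld2 (0.52), the co-chaperone Dnajb1 (0.40), the ER chaperone Hyou1 (0.36), Hsp90aa1 (0.31) and the constitutive Hspa8 (0.17). With the Actb covariate 3 of the 9 stayed called: Hspa1b, Hsph1 and Hspa8. The other 6 differences were -1.69 for Hspa1a to -0.26 for Hsp90aa1 there. Untreated arrays overlapped both groups. Their list means ran from 11.76 to 12.42 and naive ones from 11.69 to 11.84, and against control IgG and untreated mice pooled, 3 of the 20 were called lower. Hspa1b averaged 13.34 ± 0.60 in the 4 untreated mice (SD), and combination minus untreated was -0.58 ± 0.22 (adjusted p = 0.0956).

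The epithelial transporter genes that passed the test were higher. Of 28 tested colonocyte markers 4 rose and 0 fell, 23 lay above 0 and the median was 0.12. Over all genes 7.59% were called higher and 5.19% lower. Slc51a, a subunit of the bile acid exporter of the basolateral membrane, had 10.32, 10.57 and 10.85 on combination arrays and 9.01, 9.51 and 10.58 on control IgG arrays. Control IgG replicate 8 was the only control array inside the combination range. Slc51a rose by 1.00 ± 0.20 (adjusted p = 0.0127), which is 2-fold. Slc20a1, a sodium-dependent phosphate carrier, averaged 12.48 ± 0.19 in combination mice and 11.79 ± 0.19 in control IgG mice (SD, n = 7 each; difference 0.69, adjusted p = 0.00376), and the groups did not overlap. Both of these calls were kept with the Actb covariate. Scnn1a, the alpha subunit of the epithelial sodium channel, rose by 0.49 ± 0.12 (adjusted p = 0.0201), and the amino acid transporter Slc6a14 by 0.16 ± 0.046 (adjusted p = 0.0365). Naive means were 10.96 for Slc51a and 13.35 for Slc20a1, above both colitic groups.

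Markers of secretory lineages that passed were also higher, beside 7.59% called higher over all genes. Goblet cell markers had 4 of 18 higher and 0 lower (median 0.061): Fcgbp, a protein of the mucus layer, at 0.27, the membrane mucin Muc4 at 0.24, Klk1, a tissue kallikrein, at 0.15, and Muc2, the main secreted mucin, at 0.12 (adjusted p between 0.0115 and 0.0396). Another Klk1 probe set went the other way, at -0.37. Tuft cells, the chemosensory cells of the epithelium, had 3 of 6 markers higher (median 0.42). These were the taste channel Trpm5 (0.91 ± 0.27, adjusted p = 0.0446), the G protein regulator Rgs13 (0.79 ± 0.22, adjusted p = 0.036) and the kinase Dclk1 (0.45 ± 0.12, adjusted p = 0.0341), whose probe sets disagreed. Of 14 enteroendocrine markers 3 rose: the hormone genes Sst (0.64 ± 0.12, adjusted p = 0.00996) and Gcg (0.19 ± 0.051, adjusted p = 0.0303) and the granule protein gene Scg2 (0.56 ± 0.16, adjusted p = 0.0371). With the Actb covariate most of these differences kept their size, at 0.92 for Trpm5, 0.66 for Sst, 0.23 for Gcg and 0.25 for Muc4 but 0.096 for Klk1 and 0.083 for Muc2, and 0 of the 10 passed in limma (adjusted p from 0.055 to 0.189). With 1 array left out 2 to 7 goblet, 0 to 3 tuft and 1 to 6 enteroendocrine markers rose. The tuft count was 0 without combination replicate 5, 7 or 8 or control IgG replicate 2, 4, 5 or 7. Egf, a growth factor ligand, rose by 0.73 ± 0.17 (adjusted p = 0.0189) with no overlap between the groups. It was the 1 call among 9 tested genes of EGF family ligands and receptors, of which 5 lay below 0 (median -0.084). All 26 tested cell cycle genes lay below 0 (median -0.14), and 2 fell: Ccne1, the G1 cyclin E1 (-0.24 ± 0.072, adjusted p = 0.0452), and E2f1, a transcription factor of S phase entry (-0.37 ± 0.11, adjusted p = 0.0446). The direction did not hold against untreated mice, where the median of the list was 0.35, and E2f1 stood at 0.023 against control IgG and untreated mice pooled.

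The muscle coat and enteric nerves were represented by small rises. Of 16 smooth muscle markers 7 rose and 0 fell, and the median was 0.22. Their mean ran from 11.33 to 11.78 with the combination (median 11.65), from 11.10 to 11.53 with control IgG (median 11.25) and from 11.76 to 11.96 in naive mice. The rises were in Synpo2, an actin-bundling protein (0.60 ± 0.13, adjusted p = 0.0148), Lmod1, a nucleator of actin in smooth muscle (0.52 ± 0.11, adjusted p = 0.0152), Smtn, smoothelin (0.51 ± 0.15, adjusted p = 0.0386), Myh11, the smooth muscle myosin heavy chain (0.32 ± 0.075, adjusted p = 0.0198), Pgm5 (0.26), the myosin kinase Mylk (0.14) and the actin Acta2 (0.12). Other Synpo2 probe sets gave 0.082, -0.056 and -0.091. With 1 array left out 3 to 9 members were called. The 7 differences were about as large with the Actb covariate, for example 0.66 for Synpo2, 0.52 for Lmod1 and 0.64 for Smtn, but none passed there (adjusted p from 0.0553 to 0.138). Of 12 neuron and glia markers Elavl4, an RNA-binding protein of neurons, rose by 0.73 ± 0.19 (adjusted p = 0.0289), and Snap25, of the synaptic release machinery, by 0.30 ± 0.086 (adjusted p = 0.0365). How much muscle coat each cut specimen held was not tested.

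Leaving out the gland gene Dcpp3, described below, the largest rises were in genes of mixed roles. Nmu encodes neuromedin U, a peptide of enteric neurons, and had 4.12, 5.90 and 7.00 on combination arrays and 2.79, 3.79 and 4.93 on control IgG arrays. Its combination values ran from control IgG levels, in replicates 1 and 2, to the naive mean of 6.99. Nmu rose by 1.83 ± 0.48 (adjusted p = 0.0276), or 3.55-fold, and missed the threshold in 7 of 14 leave-one-out comparisons (adjusted p up to 0.058). Il22ra2 encodes the secreted protein that binds IL-22 and keeps it from its receptor. It had 5.84, 6.23 and 6.54 on combination arrays and 3.56, 4.52 and 6.38 on control IgG arrays, a rise of 1.51 ± 0.33 (adjusted p = 0.0165). Apart from control IgG replicate 1, at 6.38, every control array lay below every combination array. The naive mean of Il22ra2 was 5.88 and the untreated mean 4.58. Fhod3, a formin that builds actin filaments, had 4.16, 5.00 and 5.37 on combination arrays and 2.95, 3.43 and 4.13 on control IgG arrays without overlap and rose by 1.46 ± 0.22 (adjusted p = 0.00473). Zc3h6, a zinc finger gene, averaged 7.48 ± 0.29 in combination mice and 6.15 ± 0.43 in control IgG mice (SD, n = 7 each; adjusted p = 0.00376), also without overlap. The other large rises were Grp, gastrin-releasing peptide (1.41 ± 0.33, adjusted p = 0.0192), Srpk3, a kinase of muscle (1.45 ± 0.31, adjusted p = 0.0147), the calcium channel Cacna1e (1.35 ± 0.28, adjusted p = 0.0142), the potassium channel partner Dpp10 (1.28 ± 0.37, adjusted p = 0.0398) and Fign, a microtubule-severing enzyme (1.27 ± 0.38, adjusted p = 0.0452), whose other probe set gave 0.094.

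Of 16 circadian clock genes 5 rose and 1 fell. The rises were in Dbp (1.35 ± 0.28, adjusted p = 0.014) and Hlf (1.03 ± 0.32, adjusted p = 0.0497), transcription factors driven by the clock, in the repressors Nr1d1 (1.19 ± 0.26, adjusted p = 0.0163) and Nr1d2 (0.40 ± 0.087, adjusted p = 0.0163), and in Cry2 (0.52 ± 0.11, adjusted p = 0.0149), and Clock itself fell by 0.10 (adjusted p = 0.0478). Other Clock probe sets gave 0.11, -0.023 and -0.16, and the Clock call was lost in 12 of 14 leave-one-out comparisons. A second Hlf probe set gave 0.066, and a second Nr1d2 probe set gave 0.12 ± 0.22. The Hlf call was likewise lost in 12 of these comparisons, and the calls of Dbp, Nr1d1, Nr1d2 and Cry2 in 0. Dbp averaged 9.77 in combination mice, 8.42 in control IgG mice and 12.26 in naive mice. Zbtb16, a glucocorticoid-responsive transcription factor, fell by 1.29 ± 0.31 (adjusted p = 0.0212), the sole call among 15 glucocorticoid-responsive genes. With the Actb covariate the differences were 1.13 for Dbp, 1.19 for Nr1d1, 0.49 for Cry2, 0.32 for Nr1d2, 0.61 for Hlf and -1.59 for Zbtb16, and none passed (adjusted p from 0.0549 to 0.283).

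Enzymes of drug and fat metabolism gave small rises, beside 7.59% called higher over all genes. Of 17 cytochrome and conjugation enzymes 4 rose: Cyp2d26 (0.77 ± 0.17, adjusted p = 0.0167; no overlap), the carboxylesterase Ces2a (0.51 ± 0.14, adjusted p = 0.0303), Cyp2s1 (0.32) and Cyp3a13 (0.26). The mean of the list ran from 11.43 to 11.54 with the combination and from 11.07 to 11.41 with control IgG, without overlap. With 1 array left out 1 to 6 of these enzymes rose, 6 without combination replicate 2, and Cyp2d26 was among those that held in every such comparison. Fatty acid oxidation had 4 of 22 genes higher (median 0.10), among them Cpt1a, which brings fatty acids into mitochondria (0.21 ± 0.055, adjusted p = 0.0268), and Ppargc1a, a coactivator of mitochondrial genes (0.40 ± 0.11, adjusted p = 0.0361). That count was 0 without combination replicate 7 or 8 or control IgG replicate 2, 4, 5 or 7, and was 6 without combination replicate 2. With the Actb covariate both lists had 0 called by limma. In the hypoxia and glycolysis list Slc16a3 and the oxygen sensor Egln3 (-0.34 ± 0.093, adjusted p = 0.034) fell among 17. Calls in other lists included Ripk3, the kinase of necroptosis (-0.50 ± 0.15, adjusted p = 0.0453), the inflammatory caspase gene Casp4 (0.30 ± 0.081, adjusted p = 0.0306), the BMP antagonists Grem1 (-0.82 ± 0.25, adjusted p = 0.0446) and Chrdl1 (0.55 ± 0.097, adjusted p = 0.00758), the claudin Cldn23 (0.41 ± 0.10, adjusted p = 0.0244) and the lipid droplet gene Plin4 (1.16 ± 0.31, adjusted p = 0.0303). Others were Znrf3, a ligase that removes Wnt receptors (0.18 ± 0.044, adjusted p = 0.0241), the crypt gene Cdca7 (-0.23 ± 0.069, adjusted p = 0.0445; 0.014 with pooled controls), the succinate dehydrogenase subunit Sdha (0.10 ± 0.03, adjusted p = 0.0372) and Bpgm, an enzyme of red cells (-0.23 ± 0.067, adjusted p = 0.0436). Casp4 was the 1 call among 13 tested interleukin 1 family genes, of which 10 lay below 0 (median -0.20). In all, 85 of 640 tested members of the 49 lists were called, 54 higher and 31 lower, a share close to the 12.8% of all genes.

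A few gland transcripts differed along the array numbering of the combination group. Dcpp3, a secretory protein gene of salivary glands, stood at 14.51, 13.27, 14.03, 11.13, 5.93, 2.08 and 2.08 on combination arrays in the order of their numbers, 37 to 39 and 41 to 44. It was at the floor on all 7 control IgG, 4 untreated and 8 naive arrays of experiment 10. The gland genes Prol1, Pip and Smr2 and the clone 2310057J18Rik were likewise above a log2 intensity of 6 on the first combination array and at the floor on those 19 arrays. Dcpp3 passed the filter through the arrays where it was high, so no difference is given against control IgG. Its limma call is counted in the 1601 calls and the 102 named ones and is not read as a result. Exocrine pancreas markers averaged 4.27 to 12.75 on combination arrays and 4.04 to 13.05 on control IgG arrays, with 0 of 10 called by limma and a median difference of -1.24. Skeletal muscle markers averaged 5.10 to 8.65 on combination arrays and 4.45 to 9.28 on control IgG arrays, with 0 of 11 called by limma. Neither list followed the numbering: the pancreas mean was 12.75 on combination array 38, 4.27 on array 43 and 11.64 on array 44.

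**Figure D3:**
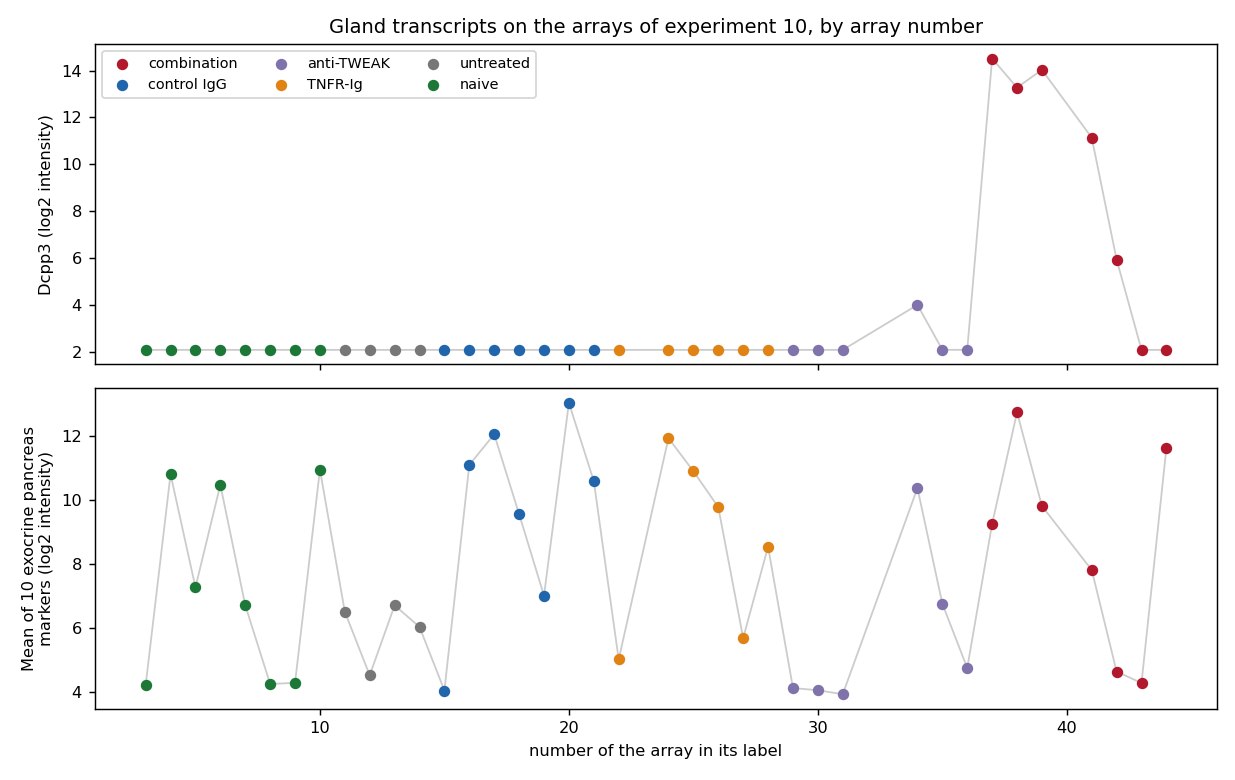
Log2 intensity of Dcpp3, and the mean of 10 exocrine pancreas markers, against the array number for the arrays of experiment 10, with a colour per group. Dcpp3 is high on the lowest-numbered combination arrays and at the floor of 2.08 on the last 2, while the pancreas markers vary over both groups.

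Control IgG against untreated mice gave 0 calls in limma (0%), with 3350 genes at an unadjusted p under 0.05. That count depended on the setting, since 1027 genes were called without untreated replicate 1 and 2237 with all arrays of experiment 10 sharing the spread. Combination against the same 4 untreated mice gave 1696 calls (13.5%), 1196 higher (9.54%) and 500 lower (3.99%), but 178 without untreated replicate 2 and 2179 without untreated replicate 1. This comparison shares the combination arrays with the one against control IgG, so its values are given side by side only. Against untreated mice the combination differed by -4.61 ± 1.34 for Cxcl1 (adjusted p = 0.0463), by -2.93 ± 0.75 for Selp (adjusted p = 0.0328) and by -2.32 ± 0.62 for Cxcl5 (adjusted p = 0.0359). Ccl7 and Mmp9 did not pass against control IgG. Against untreated mice Ccl7 differed by -3.86 ± 0.96 (adjusted p = 0.0302) and Mmp9 by -2.47 ± 0.62 (adjusted p = 0.0306). Nmu rose by 1.93 ± 0.56 (adjusted p = 0.0468), Il22ra2 by 1.56 ± 0.45 (adjusted p = 0.0453) and Slc51a by 1.11 ± 0.22 (adjusted p = 0.0173). The median over the neutrophil markers was -4.36 for combination minus untreated and -2.27 for control IgG minus untreated, beside medians of 0.061 and 0.053 over all genes.

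The single agents were set against the same 7 control IgG arrays, which these comparisons share. Anti-TWEAK alone changed 1685 genes against control IgG (13.4%), 1030 higher (8.22%) and 655 lower (5.23%). Between TNFR-Ig and control IgG mice 912 genes differed (7.28%), 564 higher (4.5%) and 348 lower (2.78%) with TNFR-Ig. TNFR-Ig mice received no antibody, so TNFR-Ig and the absence of control IgG cannot be told apart there. Tested directly, the combination differed from anti-TWEAK alone in 0 genes by limma (0%), with 732 at an unadjusted p under 0.05, which does not show that they acted alike. For Cxcl1 the difference from control IgG was -3.50 ± 1.06 with the combination, -1.27 ± 0.87 with anti-TWEAK and 0.23 ± 0.55 with TNFR-Ig (SE), and the last 2 did not pass (adjusted p = 0.348 and 0.817). For Hspa1b it was -0.84 ± 0.12 with the combination, -0.78 ± 0.14 with anti-TWEAK and -0.70 ± 0.15 with TNFR-Ig, all of which passed. Zc3h6 likewise gave 1.32, 1.47 and 1.64 in that order. The median over neutrophil markers was -1.70 with the combination, -0.47 with anti-TWEAK and 1.27 with TNFR-Ig. For control IgG minus untreated mice the median of this list was -2.27.

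Against TNFR-Ig alone, the combination changed 323 genes (2.58%), 68 higher (0.543%) and 255 lower (2.03%). Of the 24 monocyte and macrophage markers 12 were lower with the combination than with TNFR-Ig, and 4 of the 35 canonical NF-kB targets were lower. Selp had 5.06, 6.87 and 9.11 on combination arrays (lowest, median, highest) and 9.61, 10.16 and 11.96 on TNFR-Ig arrays and was lower by 3.21 ± 0.64 (adjusted p = 0.0267). Tnfrsf1b was lower by 0.68 ± 0.15 (adjusted p = 0.0342), Clec4n by 0.80 ± 0.17 (adjusted p = 0.0324) and Cd14 by 0.89 ± 0.19 (adjusted p = 0.0319). C5ar1, the receptor of the complement fragment C5a on neutrophils and macrophages, was lower by 1.23 ± 0.25 (adjusted p = 0.0287). Il22ra2 was higher by 1.68 ± 0.25 (adjusted p = 0.0201) and Cd3e, a subunit of the T cell receptor complex, by 0.49 ± 0.098 (adjusted p = 0.0269). Cxcl1 did not pass, at -3.73 ± 1.12 (adjusted p = 0.0964). TNFR-Ig mice received no antibody, so the second agent and the antibody load cannot be told apart in this comparison.

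**Figure D4:**
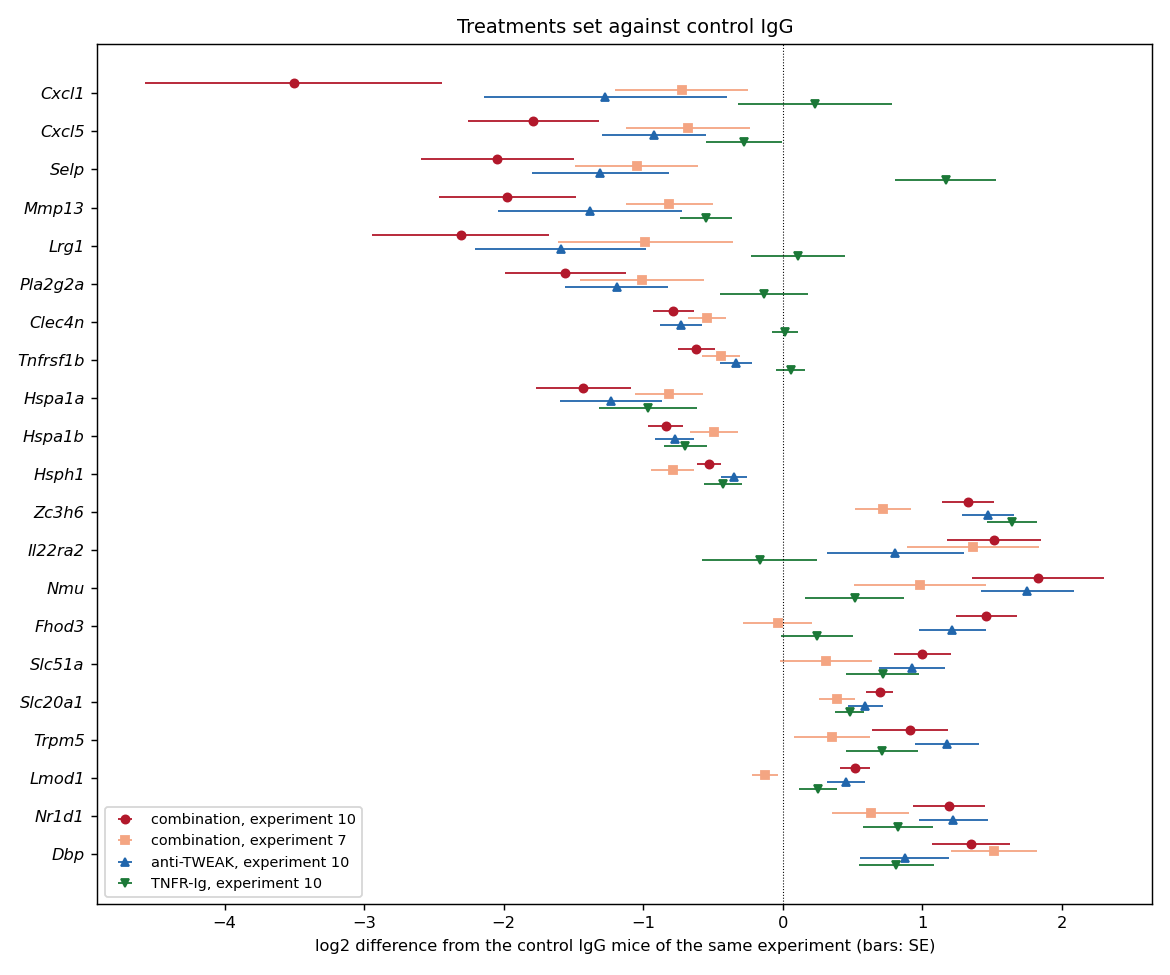
Log2 difference from the control IgG mice of the same experiment, with SE, for 21 genes under the combination in experiments 10 and 7 and under anti-TWEAK and TNFR-Ig in experiment 10. For Cxcl1 the combination of experiment 10 stands at -3.50 and that of experiment 7 at -0.72. The 3 comparisons of experiment 10 share their control arrays, and TNFR-Ig mice received no antibody.

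Experiment 7 repeated the comparison in other mice, 8 per group. In the array labels all 8 control IgG arrays belong to the first numbering, but combination replicates 7 and 8 to the second, which holds experiment 10. What this did to the comparison was not tested. There the combination changed 311 genes (2.48%), 122 higher (0.973%) and 189 lower (1.51%). The difference between the 2 experiments was tested directly and was called for 2 genes (0.016%), with 1089 at an unadjusted p under 0.05. Lonrf1, a gene of the RING finger family, averaged 9.63 ± 0.077 in combination mice and 9.78 ± 0.13 in control IgG mice of experiment 10 (SD, n = 7 each). In experiment 7 it averaged 10.16 ± 0.14 in combination mice and 9.59 ± 0.18 in control IgG mice (SD, n = 8 each), and the difference of differences was -0.72 ± 0.10 (adjusted p = 0.00128). H3f3b, which encodes the replacement histone H3.3, differed by -0.51 in experiment 10 and by 1.92 in experiment 7, a difference of -2.43 ± 0.44 (adjusted p = 0.0474). It averaged 5.38 ± 0.49 in combination mice and 5.90 ± 0.48 in control IgG mice of experiment 10 (SD, n = 7 each), and 8.14 ± 0.52 in combination mice and 6.22 ± 0.87 in control IgG mice of experiment 7 (SD, n = 8 each).

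Values of genes described above differed in size between the experiments without an interaction call. Clec4n differed by -0.79 ± 0.15 in experiment 10 and -0.54 ± 0.14 in experiment 7 (adjusted p = 0.00996 and 0.0495). Tnfrsf12a, which did not pass in experiment 10, fell in experiment 7 by 1.08 ± 0.25 (adjusted p = 0.039), and the difference between experiments was not called. Cxcl1 differed by -0.72 ± 0.48 in experiment 7 (adjusted p = 0.347), Mmp13 by -0.81 ± 0.31 (adjusted p = 0.122) and Selp by -1.05 ± 0.44 (adjusted p = 0.153). None of the 3 passed there. Sprr2h, at -2.32 in experiment 10, stood at 0.078 in experiment 7, and A2m, at -1.89, stood at 1.73; neither interaction was called. The neutrophil markers had a median of -1.70 in experiment 10 and -1.83 in experiment 7, and smooth muscle markers 0.22 and -0.063. In heat shock genes 9 of 20 were called in experiment 10 and 7 of 20 in experiment 7, and in the clock list 6 of 16 and 11 of 16. Over all genes 12.8% were called in experiment 10 and 2.48% in experiment 7. Medians over all genes were 0.0044 and -0.012.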

How the data were processed

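RNA from colon was hybridised to Affymetrix mouse arrays, 1 per mouse. The deposited table holds 1 log2 intensity per probe set and array; the submitters' processing notes name RMA, GCRMA, R 2.11.1 and limma 3.4.5, without saying which of them made the table. Of 45101 probe sets, 34945 name 1 gene, 932 several and 9160 none, and 64 are controls. Symbols were updated by Entrez identifier (99.4% matched). Each of 18193 genes was represented by its brightest probe set over all 72 arrays, and 5659 with a mean under the 40th percentile of probe set means (2.42) were left out.

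Groups were taken from sample titles. Each comparison was fitted on its own groups alone with limma 3.58.1 in R 4.3.3 (lmFit and eBayes, two-sided, Benjamini-Hochberg adjustment over 12534 genes, called under 0.05), and the procedure was tested on simulated data. Tables and figures were made with Python 3.11.15 and matplotlib 3.10.9. The differences of Actb and Gapdh were tested by exact permutation over 3432 arrangements, for which the smallest possible p is 0.000583. The number of arrays limits the precision. The first naive replicate carries a treatment label that goes against its title and was kept as naive.

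The comparison, its gene lists and alternatives were chosen with earlier results of these data known. Named genes are the 12 largest rises and falls among called genes with proper symbols, called members of the 49 lists (up to 4 by rule, and 13 more named after their values were seen), the receptors and NF-kB genes of the blocked ligands, the gene with the smallest p of lists without a call, and the called interactions. The alternatives were another filter, every probe set, quantile normalisation, a shared spread, array weights, other moderation, pooled controls, a replicate block, each array left out and, added later, an Actb covariate.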

Additional observations from a re-analysis of the deposited data

Results flagged for a closer look

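Among 249 groups of named genes, 12 had 1 array far from the others by Dixon's criterion, and chance gives about 1 in 20. In combination mice, replicate 2 was low for Fhod3 (4.16, next 4.92) and Elavl4 (7.02, next 7.60) and high for A2m (3.50, next 2.65). Replicate 1 was high for Hspa1a (5.29, next 4.22), replicate 7 low for Ccne1 (8.09, next 8.34) and replicate 6 high for Krt16 (2.22, next 2.08). In control IgG mice, replicate 1 was high for Jchain (14.15, next 13.84) and Rgs13 (7.07, next 6.45). Control IgG replicate 8 was high for Cpt1a (12.19, next 12.0), Slc25a20 (13.88, next 13.81) and Krt16 (3.86, next 2.57), and replicate 2 was low for Hsph1 (13.62, next 14.03).

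In 2 genes the combination's difference from control IgG was itself different between the experiments by limma's interaction test: H3f3b at -2.43 and Lonrf1 at -0.72 for experiment 10 minus experiment 7.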

How the results depend on the processing

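For the combination against control IgG, the 1601 calls became 787 to 2109 with 1 array left out (473 to 1244 higher, 314 to 865 lower). They were 1061 (612 higher) without a filter on dim genes, 2986 with every probe set tested (1662 lower), and 150 with the Actb covariate (92 higher, 58 lower). Pooling untreated with control IgG mice gave 1601 calls, of which 1022 were shared, and 71.1% of them were higher, against 59.4%. The other 6 settings gave 1587 to 2294 calls. Of the 102 named calls, 40 were kept whichever array was left out, 28 were lost with pooled controls, 12 with all arrays of experiment 10 sharing the spread, 4 with quantile normalisation, and 92 with the Actb covariate, where 10 were kept. With pooled controls Cdca7 (0.014) and E2f1 (0.023) turned from lower to higher, and the uncalled Irf8 (0.036), Cela2a (0.47) and Rela (-0.0051) changed sign too. Rela was also below 0 with the Actb covariate (-0.0099) and, leaving 1 array out, ran from -0.0033 to 0.045. Tnfaip3 lay above 0 with quantile normalisation (0.0084) and, leaving 1 array out, ran from -0.085 to 0.029. The cause of these changes was not tested.

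Whether replicate numbers pair the mice is undecided: deviations of same-numbered arrays correlated between -0.32 and 0.57. Against control IgG the replicate block, over shared numbers, left out combination replicate 3 and control IgG replicate 4. It left 4 calls there (3 higher, 1 lower), kept 2 of the 102 named calls, and put Tnfaip3 at 0.033. It left 165 calls against TNFR-Ig (30 higher, 135 lower), 0 against untreated mice (0 higher, 0 lower) and 0 for the difference between experiments (0 lower).

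Against TNFR-Ig, no filter gave 94 calls (20 higher, 74 lower) and a spread shared over experiment 10 gave 719 (241 higher, 478 lower). Against untreated mice there were 901 calls without a filter (654 higher, 247 lower), 798 lower with every probe set, 3046 with a shared spread (2181 higher, 865 lower), 1081 with weights per group (778 higher, 303 lower), and 178 to 2179 with 1 untreated array left out (135 to 1695 higher, 43 to 535 lower). Control IgG against untreated gave 2237 calls with a shared spread (1596 higher, 641 lower) and 0 to 1027 with 1 untreated array left out (0 to 782 higher, 0 to 245 lower). The difference between experiments gave 1 call without a filter (1 lower) or with every probe set (1 lower), 1 higher gene with quantile normalisation, and 4 calls with weights per group (1 higher).

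Genes near the floor, where 37.5% of values lay, cannot be ranked. The 7 mice per group, the undecided pairing of replicates, the difference in RNA quality between the groups and the array numbering that follows the groups limit every call.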

Other observations

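Dcpp3 was also bright on some arrays of experiment 7. It stood at 13.07 and 9.18 on untreated arrays 3 and 4 and at 14.25, 12.60 and 5.37 on control IgG arrays 9, 10 and 11. On combination arrays of that experiment it stood at 14.44 on array 32, and at 12.81 and 10.15 on arrays 1 and 2 of the next run. In experiment 10 the anti-TWEAK array numbered 34 had 4.00. In each of the 3 runs of experiment 7 the value was lower on each later array.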
